A study of Mus musculus with 4 samples.

Results

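The Cyp2c genes encode cytochromes P450, haem enzymes of the endoplasmic reticulum, and the mouse genes lie together on chromosome 19. Of 10 listed members, 8 were measured under their own symbol, by 11 of the 43379 probes and as 8 of 19087 genes: Cyp2c29, Cyp2c37, Cyp2c38, Cyp2c39, Cyp2c40, Cyp2c54, Cyp2c55 and Cyp2c70. A gene counted as measured where the platform annotation gave its symbol, and no other, to a probe. The list had been chosen by the log2 ratios of these same arrays. Cyp2c44 was found as Cyp2c23, its symbol in the annotation, with 1 probe, and its values are given beside the members. Cyp2c50 had no probe of that symbol alone and was not analysed here, whereas Cyp2c66, which was not on the list, had 1 probe.

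The study hybridised liver RNA of a resveratrol-treated Wrn mutant together with that of an untreated wild-type mouse on each of 4 arrays, with a dye for each animal. Resveratrol is a polyphenol of grapes, and the Wrn mutants lack a working helicase domain in the protein whose loss causes Werner syndrome in people. All animals were labelled as male C57Bl/6 mice aged 9 months and kept on freely available food under a reversed light-dark cycle, and the labels state neither dose nor length of treatment. The 4 mutants were different animals, and the wild-type side held animal 2 on arrays 1 and 3 and animal 4 on arrays 2 and 4, with the mutant in Cy5 on arrays 1 and 2 and in Cy3 on arrays 3 and 4. Genotype and treatment differed together, so their shares cannot be told apart, and the deposited ratios give no level on either side. In bulk liver, fewer cells of a type and less RNA per cell cannot be told apart either.

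Values are log2 ratios as deposited, with SD over n = 4 arrays, and a positive one is likely mutant over wild type. The basis of that direction is the title of the series and the channel order, and the dyes did not settle it. The labels do not state whether the dye-swapped arrays 3 and 4 share the orientation of arrays 1 and 2. Over all probes, array pairs correlated at r = -0.18 (arrays 1 and 3) to 0.21 (arrays 3 and 4). With the sign of arrays 3 and 4 turned, the means of the 10 measured Cyp2c genes lay between -0.56 for Cyp2c54 and 0.031 for Cyp2c55, that of Cyp2c70 was -0.33, and 0 genes of the whole table passed the threshold (1518 at an unadjusted limma p under 0.05). The signs and sizes that follow hold for the values as deposited. Wrn stood at 0.12 ± 0.73 with 4 probes that disagreed in sign and checks no label. Xist, the RNA that coats an inactive X chromosome in female cells, read -1.81, -2.66, -1.62 and -2.12 (mean -2.05 ± 0.46) and passed limma's adjusted threshold, although all animals were labelled male. Of 14 hepatocyte markers, 11 had a mean above 0 (9413 of all 19087 genes), with list means of 0.031 to 0.31 on the arrays.

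Members of the Cyp2c family oxidise drugs, steroids, retinoids and fatty acids, and several turn arachidonic acid into epoxides or hydroxy acids. Transcription of several is raised by the nuclear receptors CAR (Nr1i3) and PXR (Nr1i2), sensors of foreign compounds, and hepatocyte factors such as HNF4A keep the family active in liver. Their coding sequences are similar, so probes of one member can bind RNA of another. The members were listed with results of these arrays in view, so their ratios are a description and support no claim about the family.

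The promoters of 4 members are shown because these genes span the range of the ratios. They are the 250 bases upstream of a start in RefSeq on GRCm38.p6, cut short for Cyp2c29 and Cyp2c38 where another annotated start lies further upstream. Each is written 5′ to 3′ on the strand of the gene, and capitals mark every match to CAAAGTNNA in the bases shown, searched on both strands.
Cyp2c70, highest mean ratio, chr19:40187287-40187536, minus strand: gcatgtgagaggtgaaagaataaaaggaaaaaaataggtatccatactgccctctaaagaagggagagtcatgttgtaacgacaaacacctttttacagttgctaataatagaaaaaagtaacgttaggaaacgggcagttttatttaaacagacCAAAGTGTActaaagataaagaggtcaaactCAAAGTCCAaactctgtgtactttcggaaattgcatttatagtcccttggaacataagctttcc
Cyp2c29, positive mean ratio, chr19:39286835-39287043, plus strand: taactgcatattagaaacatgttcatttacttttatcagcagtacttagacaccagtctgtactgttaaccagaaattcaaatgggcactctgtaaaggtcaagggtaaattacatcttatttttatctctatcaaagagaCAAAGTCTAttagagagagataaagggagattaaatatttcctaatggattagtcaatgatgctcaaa
Cyp2c40, negative mean ratio, chr19:39812815-39813064, minus strand: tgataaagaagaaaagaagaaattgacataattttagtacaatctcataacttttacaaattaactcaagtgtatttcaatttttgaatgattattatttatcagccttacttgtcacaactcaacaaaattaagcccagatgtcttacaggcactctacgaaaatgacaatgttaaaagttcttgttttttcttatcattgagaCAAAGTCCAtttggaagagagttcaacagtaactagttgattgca
Cyp2c38, lowest mean ratio, chr19:39463104-39463325, minus strand: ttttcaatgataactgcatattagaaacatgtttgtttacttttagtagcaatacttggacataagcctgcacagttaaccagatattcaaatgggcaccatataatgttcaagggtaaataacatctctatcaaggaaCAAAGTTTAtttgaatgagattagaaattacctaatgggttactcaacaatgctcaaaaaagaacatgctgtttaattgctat

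CAAAGTCCA, the letters that HNF4A is known to prefer, stood in the uncut 250-base window of Cyp2c70, starting 64 bases before the start, and of Cyp2c40, starting 45 bases before it. Those genes were at the top and near the bottom of the ratios. The same letters occurred on either strand in 126 of 32851 upstream windows of all genes, or 0.384%. The looser CAAAGTNNA, which includes CAAAGTCCA and was chosen after the sequences had been read, occurred in 7 of 9 windows of the measured Cyp2c genes and in 3.57% of all windows. Cyp2c29, Cyp2c37 and both windows of Cyp2c39 held CAAAGTCTA, and Cyp2c38 held CAAAGTTTA. A further match in the window of Cyp2c29, CAAAGTGGA, begins in the last bases shown and runs past them, so it is not in capitals. No window is given for Cyp2c54 and Cyp2c23. Among other motifs searched on both strands, AGGTCA, one repeat of many nuclear receptor sites, was in the windows of Cyp2c29, Cyp2c39 and Cyp2c70 (14.0% of all windows). TTGCNNAA, a C/EBP-type site, was in that of Cyp2c37 (9.56%), and GTTAAT, one arm of an HNF1 site, in that of Cyp2c40 (6.43%). TTCNNNGAA, a STAT5-type site, was in 0 of the 9 (7.02%). A match is a run of letters and not a bound site.

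Aligned over 250 bases, the upstream windows of Cyp2c29, Cyp2c38 and Cyp2c39 were the most alike of the measured genes. Cyp2c38 and Cyp2c39 were 75.8% and 71.0% identical, for the 2 windows of Cyp2c39, Cyp2c29 and Cyp2c39 74.1% and 68.1%, and Cyp2c29 and Cyp2c38 68.8%. Their ratios were nevertheless of both signs, positive for Cyp2c29 and negative for Cyp2c38 and Cyp2c39 on all 4 arrays. Cyp2c70 was 48.0% to 53.1% identical to the others. Identity between windows of unrelated genes was not computed, so these percentages have no baseline. Over the 28 pairs of 8 genes, which share genes and arrays, identity and the size of the difference in mean ratio correlated at r = -0.15 (Spearman's rho = -0.32). For pairs with Cyp2c39, the higher identity of its 2 windows was used.

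The members lay on both sides of 0. Cyp2c70, Cyp2c54, Cyp2c29 and Cyp2c55 had means above 0, and Cyp2c38, Cyp2c40, Cyp2c39 and Cyp2c37 had means below 0. Their median was 0.056 against -0.0046 for all genes, and their means had an SD of 1.45 against 0.39 over all genes. Of the 8, 7 had one sign on all 4 arrays, against 15.9% of all genes. These were 3 above 0 on all 4 arrays (7.69% of all genes) and 4 below 0 (8.16%). Their mean ratio was over 1 in size in 3 of 8, against 1.81% of all genes. One member, Cyp2c70, passed limma's adjusted threshold of 0.05 in the fit across all genes, where 0.246% of genes passed. It was the 1 member that rose, against 0.0786% of genes, and 0 members fell, against 0.168%. No member passed that threshold without array 2, without array 3, without array 4, or with the arrays scaled to the same spread. In these settings 0, 9, 0 and 16 of all 19087 genes passed, in that order, and the mean of Cyp2c70 was 2.55 to 2.71. Without array 1 Cyp2c70 passed, as 1 of 34 genes. With a random block for the wild-type animal 2 members passed, Cyp2c70 and, with its negative mean, Cyp2c40. That fit used a negative block correlation (-0.37), which lowers standard errors for all genes, and 194 of 19087 genes passed. Since the members were listed with this comparison in view, nothing is read from these counts.

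**Figure D1:**
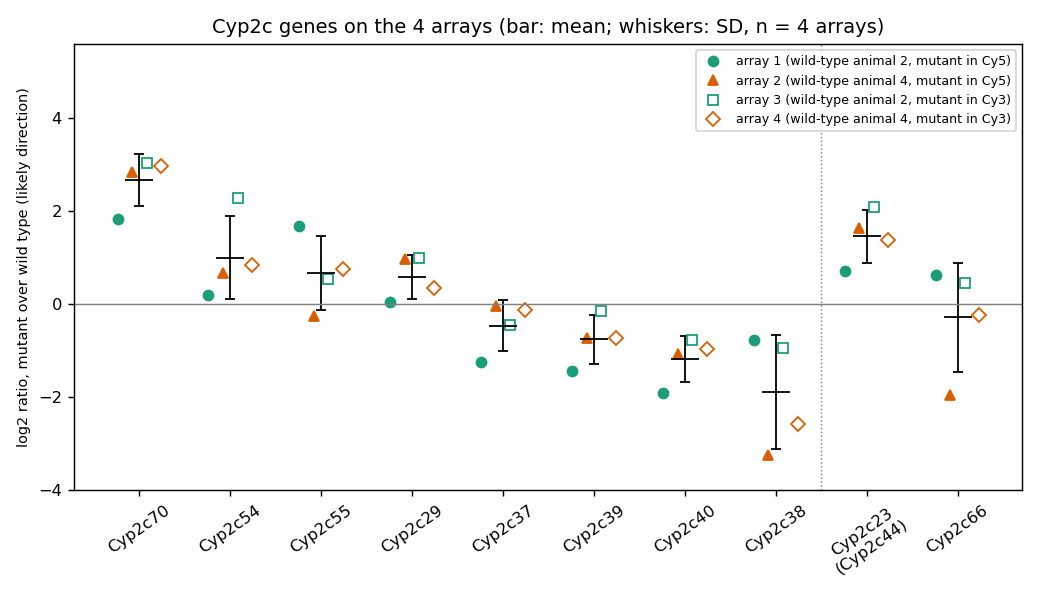
Log2 ratios of the 8 Cyp2c members, ordered by mean, and of Cyp2c23 (Cyp2c44) and Cyp2c66 right of the dotted line, on each of 4 arrays. Green symbols are arrays with wild-type animal 2 and orange symbols arrays with wild-type animal 4, filled where the mutant carried Cy5, and horizontal bars and whiskers are the mean and SD. Cyp2c70 lies between 1.83 and 3.03, while Cyp2c38 splits into green points at -0.78 and -0.96 and orange points at -3.26 and -2.60.

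Cyp2c70 hydroxylates bile acids into the muricholic acids that set mouse bile apart from human bile. Its 1 probe read 1.83, 2.85, 3.03 and 2.97 on arrays 1 to 4, the highest value of any member on every array. Arrays 2 to 4 lay close together and array 1 was below them. The mean of 2.67 ± 0.56 corresponds to a 6.36-fold higher signal and was the 15th highest of 19087 genes.

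Cyp2c29, Cyp2c54 and Cyp2c55 were the other members with a positive mean. Cyp2c29, an epoxygenase abundant around the central vein, read 0.035, 0.96, 0.98 and 0.34 (mean 0.58 ± 0.47). It was near 0 on array 1 and clearly positive on arrays 2 and 3. Cyp2c54, another arachidonic acid oxidase, read 0.20, 0.67, 2.28 and 0.85 (mean 0.998 ± 0.89), and array 3 gave it most of its mean. Cyp2c55, first known from colon and inducible in liver, read 1.67, -0.26, 0.54 and 0.75 (mean 0.67 ± 0.80). It was the only member with both signs, and its value was highest on array 1, where most members were lowest.

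Cyp2c40, which oxidises arachidonic acid and is expressed more in livers of female mice, read -1.92, -1.08, -0.78 and -0.98 over its 2 probes (mean -1.19 ± 0.50, or 2.28-fold lower). Both probes were below 0 on all 4 arrays, with means of -1.44 and -0.94. They were apart by 1.13 on array 1 and by 0.16 on array 3. Cyp2c67, Cyp2c68 and Cyp2c69, which lie next to Cyp2c40, had no probe of their own symbol alone, and how far their RNA entered the Cyp2c40 signal was not tested.

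Cyp2c39, an enzyme that hydroxylates retinoic acid, read -1.44, -0.73, -0.16 and -0.73 (mean -0.76 ± 0.53). All 4 values were negative, that of array 3 closest to 0. Cyp2c37, which makes a hydroxy acid from arachidonic acid, read -1.25, -0.033, -0.45 and -0.13 (mean -0.47 ± 0.55). Its mean came largely from array 1, since arrays 2 and 4 were close to 0. Its 2 probes ran together, with means of -0.35 and -0.58 and a difference of 0.24 ± 0.12.

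Cyp2c38, an arachidonic acid epoxygenase, had the lowest mean of the members and the most uneven one. It read -0.78 and -0.96 on arrays 1 and 3, against -3.26 and -2.60 on arrays 2 and 4. The split follows the wild-type animal, 2 on arrays 1 and 3 and 4 on arrays 2 and 4, and not the dye. The mean over all arrays was -1.90 ± 1.22, or 3.73-fold lower, but -0.87 with wild-type animal 2 and -2.93 with wild-type animal 4. The mutants also differed between these arrays, so mutant and wild-type animals cannot be told apart as the side that differed.

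Both Cyp2c38 probes showed the split. Probe 1 read -1.01 and -1.86 on arrays 1 and 3, and -3.69 and -2.77 on arrays 2 and 4. Probe 2 read -0.55 and -0.053 on arrays 1 and 3, and -2.83 and -2.42 on arrays 2 and 4. In the gene's mean, the lower of arrays 1 and 3 was above the higher of arrays 2 and 4 by 1.64, the 9th widest such gap of all genes. A gap over 1 in that direction occurred in 1 of 8 members and 0.278% of genes. With arrays 3 and 4 turned, the Cyp2c38 values would change sign on those arrays, would not group by animal and would have a mean of -0.12.

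The gene listed as Cyp2c23 (Cyp2c44), an epoxygenase that stands apart from the main cluster, read 0.72, 1.64, 2.08 and 1.38 (mean 1.45 ± 0.57, or 2.74-fold higher). It was positive on every array, did not pass the adjusted threshold, and had the highest mean of the Cyp2c genes after Cyp2c70. Cyp2c66 read 0.62 and 0.44 on arrays 1 and 3 and -1.96 and -0.23 on arrays 2 and 4. Its signs also followed the wild-type animal, with a gap of 0.68.

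In the order of means, from Cyp2c70, Cyp2c23, Cyp2c54, Cyp2c55, Cyp2c29, Cyp2c66, Cyp2c37, Cyp2c39 and Cyp2c40 down to Cyp2c38, most neighbours were within their spread. Of the 9 neighbouring pairs, 2 differed in one direction on all 4 arrays and by more than the SD of the difference. These were Cyp2c70 over Cyp2c23, by 1.22 ± 0.27, and Cyp2c39 over Cyp2c40, by 0.42 ± 0.16. Ratios of different probes can be compressed to different degrees, which was not tested.

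Along chromosome 19, in the order of the GRCm38.p6 annotation, the 4 members with negative means stood together. Cyp2c39, Cyp2c38, Cyp2c40 and Cyp2c37 followed each other among the measured genes, and Cyp2c54 and Cyp2c70 came next with positive means. Cyp2c29, just before Cyp2c39, and Cyp2c55, at the other end, were positive, with Cyp2c66 between them at -0.28 ± 1.18. Cyp2c39 has an annotated start on each side of Cyp2c38 and is placed by the first of them. Of the 19 Cyp2c genes and pseudogenes in that order, 10 were measured, so the run of signs has gaps.

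**Figure D2:**
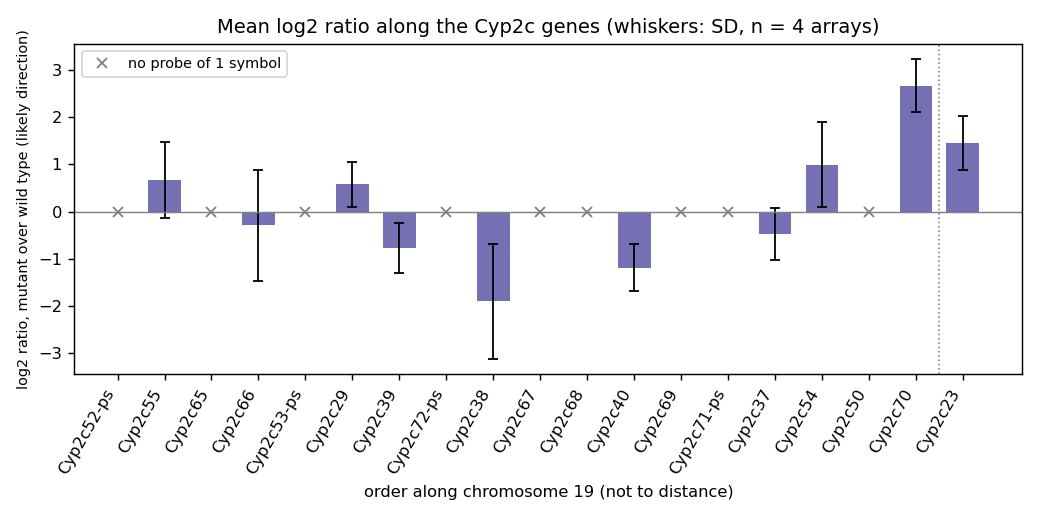
Mean log2 ratio (bars) with SD over 4 arrays (whiskers) of the 10 measured Cyp2c genes in their order along chromosome 19, with crosses for the genes that had no probe of 1 symbol and a dotted line before Cyp2c23, which lies apart. Spacing is by order, not distance. Negative bars from Cyp2c39 (-0.76) to Cyp2c37 (-0.47) lie between Cyp2c29 at 0.58 and Cyp2c54 at 0.998.

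Several members kept an even distance from each other from array to array, whatever their sign. Cyp2c70 exceeded Cyp2c40 by 3.86 ± 0.09, and the difference ran from 3.75 to 3.94. Cyp2c23 exceeded Cyp2c39 by 2.22 ± 0.11, and Cyp2c29 exceeded Cyp2c39 by 1.34 ± 0.29. Of the 45 pairs of Cyp2c genes, 9 had a difference with an SD under 0.3, and all 9 were among Cyp2c23, Cyp2c29, Cyp2c37, Cyp2c39, Cyp2c40 and Cyp2c70. The share of gene pairs in the whole table under that SD was not computed, so nothing is read from this count. A difference from Cyp2c70 as even as that of Cyp2c40 was found for 35 of 19077 other genes, or 0.183%; this pair was chosen after its values were seen.

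Array 1 held an extreme value of every member. It gave the lowest value of 6 of 8 members, against 29.5% of all genes, and the highest value of the other 2, Cyp2c38 and Cyp2c55. The share of all genes highest on array 1 was not computed. Members were chosen from these arrays and their probes may cross-hybridise, so nothing is read from these counts. Over the 8 members the mean was -0.21, -0.11, 0.56 and 0.058 on arrays 1 to 4, against means over all genes of -0.033 to 0.046. The medians of the members were -0.37, -0.15, 0.19 and 0.10, and the SD over members was 1.40 to 1.76. The distance between the highest and the lowest member was 3.75 and 3.99 on arrays 1 and 3, with wild-type animal 2, and 6.11 and 5.56 on arrays 2 and 4, with wild-type animal 4. Cyp2c38 was the lowest member on arrays 2 to 4 and Cyp2c40 on array 1. With Cyp2c38 left out, Cyp2c40 was the lowest member on every array, and Cyp2c70 lay above it by 3.75 to 3.94. The wider distance on arrays 2 and 4 thus came from Cyp2c38 alone.

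**Figure D3:**
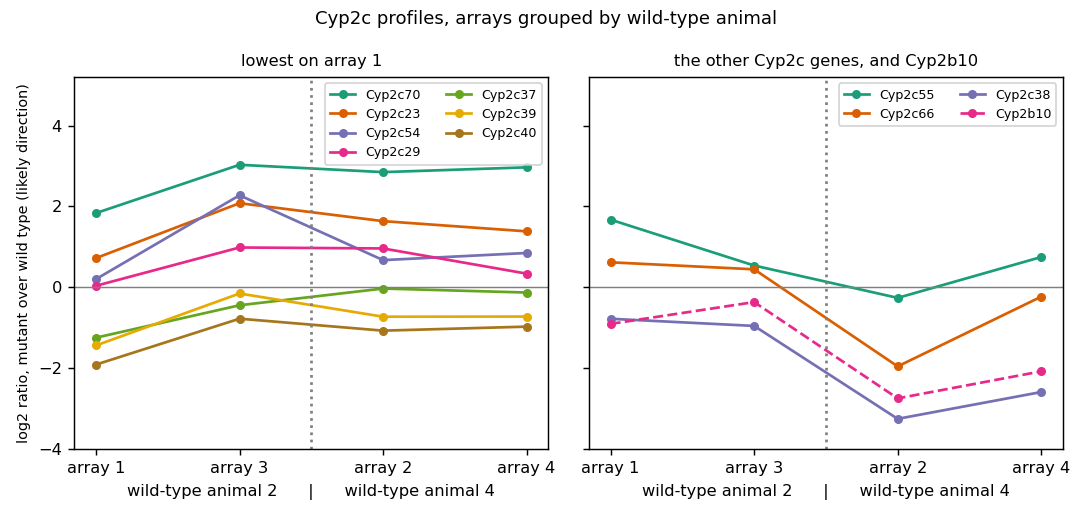
Log2 ratios of single genes on the 4 arrays, with arrays 1 and 3 (wild-type animal 2) left of the dotted line and arrays 2 and 4 (wild-type animal 4) right of it; lines join the arrays of 1 gene and stand for no order. The left panel holds the Cyp2c genes that were lowest on array 1, among them Cyp2c70 and Cyp2c40 at an even distance. The right panel holds Cyp2c55, Cyp2c66, Cyp2c38 and, dashed, Cyp2b10, of which Cyp2c66, Cyp2c38 and Cyp2b10 are lower on both arrays right of the dotted line than on both arrays left of it.

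Genes with the nearest profiles to Cyp2c70, by the root mean square difference over 4 arrays, were Ces3b (0.24), a liver carboxylesterase gene, Nudt7 (0.295), whose peroxisomal product splits coenzyme A, Alas2 (0.42), the haem synthesis gene of red cells, and Insig1 (0.46), a brake on SREBP processing. Those nearest to Cyp2c38 were Fgf21 (0.37), which encodes a liver hormone, the bicarbonate transporter gene Slc4a4 (0.43), Pdk4 (0.43), whose kinase shuts pyruvate dehydrogenase, and Cyp2b10 (0.47), the classical CAR target. These 4 share the split of Cyp2c38, for which they were chosen. Pdk4 read -0.63 and -1.29 on arrays 1 and 3 and -3.51 and -3.34 on arrays 2 and 4. Cyp2b10 read -0.91 and -0.37 on arrays 1 and 3 and -2.75 and -2.08 on arrays 2 and 4. It was the only 1 of 25 measured CAR and PXR targets outside Cyp2c with a gap over 1 in that direction (0.278% of all genes).

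Many of the deposited ratios were exact repeats. Of the values of all probes with 1 symbol, 53.5% were equal to the last digit to the value of another probe on the same array. Over all 43379 probes, repeats made up 43.8% and 42.4% on arrays 1 and 2, and 67.3% and 69.1% on arrays 3 and 4. Over the 4 arrays together, the share was 3.7% for hepatocyte markers, 64.7% for bile duct cell markers and 64.3% for kidney markers. For the Cyp2c members it was 9.09%, or 4 of 44 values. Those 4 were 2 values of Cyp2c55, 1 of Cyp2c39 (array 3) and 1 of the second Cyp2c38 probe (array 3). Cyp2c66 had repeats on 3 of 4 arrays, and Cyp2c23, Cyp2c29, Cyp2c37, Cyp2c40, Cyp2c54 and Cyp2c70 had none. Without the members that had a repeat, the mean over members was 0.52 in place of 0.075. That setting drops Cyp2c55, Cyp2c39 and Cyp2c38 whole, the last being the member with the lowest mean (-1.90).

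**Figure D4:**
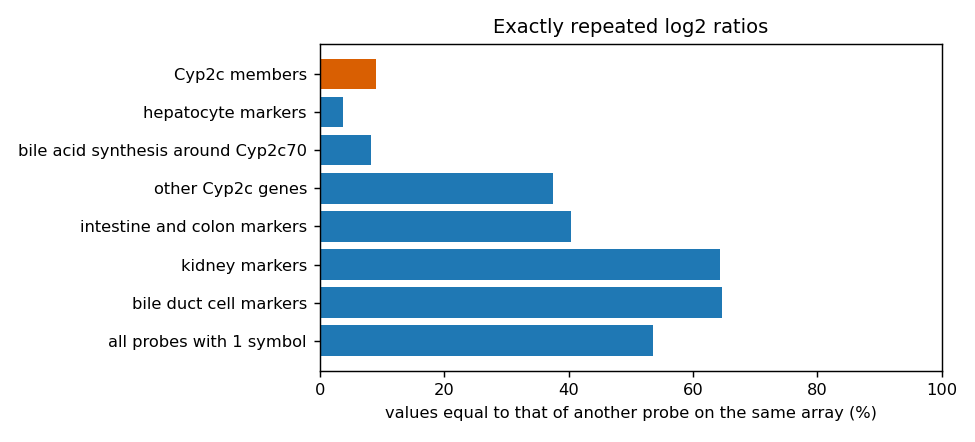
Share of log2 ratios, in percent, that equal the value of another probe on the same array, for the Cyp2c members and 7 other sets of probes over 4 arrays. The Cyp2c members (9.09%) lie near hepatocyte markers (3.7%) and below the probes of all genes (53.5%).

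Other genes of the same routes were drawn from lists written with earlier results of these arrays known. Over all genes, 0.246% passed limma's adjusted threshold, 0.0786% rising and 0.168% falling. Of the 19087 genes, 9413 had a mean above 0 and 9674 below. The CAR gene Nr1i3 read -1.19, -0.55, -1.66 and -2.29 (mean -1.42 ± 0.74) and the PXR gene Nr1i2 -0.18, -1.14, -0.78 and -0.42 (mean -0.63 ± 0.42). Both were negative on all 4 arrays, as were Foxa3 at -1.54 ± 0.47, Ppargc1a at -0.98 ± 0.51 and Hnf4a at -0.65 ± 0.33, and 0 of 21 measured receptors and factors passed limma's adjusted threshold. Of these 21, 6 had a mean above 0, the highest at 0.56, and 15 below. On all 4 arrays, 8 of the 21 were negative (8.16% of all genes) and 0 positive (7.69%). Of 25 measured CAR and PXR targets outside Cyp2c, 0 passed, 9 had a mean above 0 and 16 below, and their median was -0.16. Their means ran from -3.71 to 1.29. On all 4 arrays, 5 of the 25 were positive (7.69% of all genes) and 9 negative (8.16%). Cyp2b9 stood at -3.71 ± 1.81, Alas1, the first enzyme of haem synthesis, at -1.85 ± 0.72, and Gadd45b at -1.75 ± 1.36.

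Among 12 measured genes of electron supply and haem, Cyb5b at 1.45 ± 0.24 and Cyb5r3 at 1.30 ± 0.32 were positive on all arrays, and 0 passed. Of 28 other family 2 P450 genes, 1 rose (0.0786% of all genes), the lung and liver P450 Cyp2f2 at 1.77 ± 0.23. The 1 that fell (0.168% of all genes) was Cyp2b13 at -4.04 ± 0.93. Of 17 genes of epoxide and arachidonate metabolism, 2 fell, against 0.168% of all genes. These were the fatty acid hydroxylase genes Cyp4a14 at -5.70 ± 2.03 and Cyp4a10 at -4.23 ± 1.19. Ephx2, which opens the epoxides that Cyp2c enzymes make, stood at -0.53 ± 0.30.

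Of 20 measured genes of bile acid synthesis and transport, the setting of Cyp2c70, 0 passed and 12 had a mean above 0. Cyp7b1 stood at 3.10 ± 1.48, Akr1c6 at 1.34 ± 0.11, Abcb4 at -1.78 ± 1.14 and Cyp39a1 at -1.32 ± 0.39. Of 10 retinoid genes around Cyp2c39, 0 passed, 5 had a mean above 0 and 5 below, with Cyp26b1 at -1.68 ± 1.00, Rdh16 at -1.57 ± 0.47 and Cyp1a2 at 1.08 ± 0.78.

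Cyp2c40 is known for its female bias, and most genes of that kind had negative means, although all animals were labelled male. Of 25 measured female-predominant genes, 6 fell (0.168% of all genes), Cyp2b13 and Cyp4a14 already given among them, and 0 rose (0.0786%). A mean below 0 was found in 24 (9674 of all 19087 genes), with a median of -1.74. Cyp2b10, named above for its profile near that of Cyp2c38, was also on the female-predominant list. Of 18 male-predominant genes, 4 rose (0.0786% of all genes), Nudt7 named above among them, and 0 fell (0.168%). A mean above 0 was found in 17 (9413 of all 19087 genes), with a median of 2.28. Xist lay below 0 on the same arrays, and its part in these lists and in Cyp2c40 was not tested. Of 14 genes of the growth hormone and STAT5 axis, which sets this bias, 0 passed, with Bcl6 at 1.44 ± 1.16, Socs2 at -0.74 ± 0.76, Tox at -0.72 ± 0.44 and Socs1 at 0.42 ± 1.60.

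**Figure D5:**
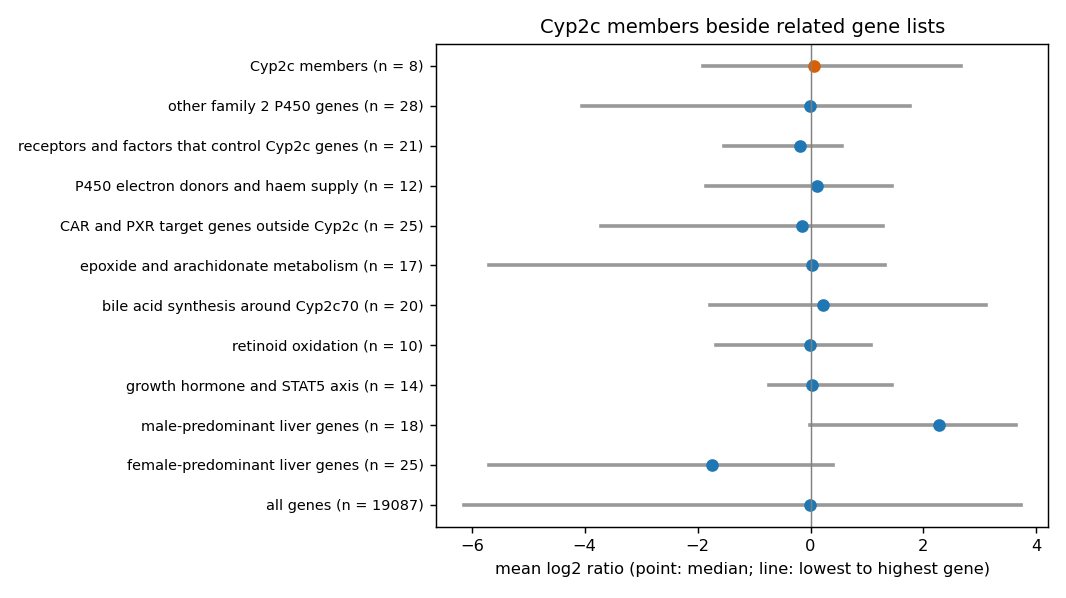
Median (point) and lowest to highest gene (line) of the mean log2 ratios over 4 arrays, for the 8 Cyp2c members, 10 related gene lists and all genes. The Cyp2c members run from -1.90 to 2.67 around a median of 0.056, while the male-predominant list has a median of 2.28 and the female-predominant list of -1.74.

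Cyp2c29 is a gene of the pericentral zone. Of 14 measured pericentral genes 0 passed, against 0.246% of all genes. Among them Lhpp stood at -1.63 ± 0.34, Oat at -1.44 ± 0.33, Cyp1a2 at 1.08 ± 0.78 and Cyp7a1 at -0.96 ± 0.66. Of 12 periportal genes, 1 rose (0.0786% of all genes), the Cyp2f2 already given. Pck1 stood at -1.54 ± 0.36, Hal at 1.33 ± 0.31 and Ass1 at 1.19 ± 0.30. Markers of other cells were near 0 as lists, with a median of 0.18 for Kupffer cells, -0.11 for endothelial cells, -0.17 for stellate cells, 0.01 for bile duct cells, 0.22 for lymphocytes and -0.084 for neutrophils. The medians were 0.11 for intestine and colon and 0.09 for kidney. Exact repeats made up 29.5% (Kupffer cells) to 64.7% (bile duct cells) of the values of these lists, against 3.7% for hepatocyte markers. List means also moved between arrays, from -0.43 on array 1 to 0.22 on array 3 for bile duct cells. Medians near 0 therefore do not show that cell content was unchanged, which was not tested. Red blood cell markers had a median of 0.63. Of these 6, 1 rose (0.0786% of all genes), Alas2 at 2.45 ± 0.48, while Car2 stood at -1.35 ± 0.26. Their array means of 0.31, 0.76, 0.78 and 0.64 were lowest on array 1, as were 6 Cyp2c members, and their part in the Cyp2c ratios was not tested.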

How the data were processed

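Liver RNA of 4 mutants, each beside that of wild-type animal 2 or 4, was measured on 4 2-colour arrays. The authors deposited 1 log2 ratio per probe and array. The base of the log was taken from the range of the values and from the tool in the submitters' processing notes, limma, whose version they do not state. How background was corrected, how arrays were normalized and filtered, and which way ratios run are not given in the sources consulted. Of 43379 probes, 33653 had 1 gene symbol in the platform annotation, 56 several and 9670 none. Ratios were averaged over the probes of a gene, giving 19087 genes. The number of arrays limits the precision, and wild-type animals are shared between arrays, so the arrays are not fully independent samples.

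Each gene was tested against 0 by limma's moderated test (limma 3.58.1, R 4.3.3; an intercept alone, eBayes, two-sided) and Benjamini-Hochberg adjustment over all genes at 0.05; the fit was tested on simulated data. The members and gene lists were chosen with earlier results of these data known. The text names every measured Cyp2c gene, up to 4 genes of each list by size of the mean, those past the threshold, 8 fixed genes (Por had no probe of its symbol alone) and the 4 nearest profiles of Cyp2c70 and of the lowest member. Not every gene that this rule selects is printed. Upstream windows of 250 bases, uncut for alignment and motif search, came from RefSeq (GRCm38.p6) and were aligned globally with Biopython 1.88 (match 1, mismatch -1, gap opening -2, extension -0.5). Protein sequences were not used here, so a planned comparison by protein identity was made on upstream windows. Alternatives turned arrays 3 and 4, left out each array, scaled the arrays, took the median of probes, subtracted a running median over 11 x 11 spots, and added a wild-type block, a dye term, a robust prior or single probes.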

Additional observations from a re-analysis of the deposited data

Results flagged for a closer look

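Of 113 named genes and lists, 7 (6.19%) had 1 array whose gap to its nearest neighbour took up most of the gene's range over the arrays (past Dixon's critical value), and chance gives about 1 in 20. Among the Cyp2c genes this was Cyp2c70, at 1.83 on array 1 against 2.85 to 3.03 on the others. Among the related genes it was Abcb4 at -3.47 on array 3, Hal at 0.88 on array 3, Colec11 at -0.26 on array 2, Krt7 at 0.076 on array 3 and S100a9 at 0.89 on array 4. The list mean of electron donors and haem supply was 0.34 on array 4 against 0.039 to 0.081 on the others. Cyp2c66 was above 0 on both arrays with wild-type animal 2 and below 0 on both with wild-type animal 4, a difference of 1.63 that was not tested.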

How the results depend on the processing

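In the values as deposited, 4 of 8 members had a mean above 0, and the count was also 4 without each array in turn, with the arrays of one wild-type animal or one dye orientation alone (added after the data were seen), with scaled arrays, with the median of probes and with the spatial trend subtracted. With arrays 3 and 4 turned it was 1, and Cyp2c70 stood at -0.33 in place of 2.67. The mean over members ran from -0.086 to 0.17 without single arrays, and was 0.52 without the members that had a repeated value and 0.23 with Cyp2c23 counted as Cyp2c44, both added after the data were seen. The 47 genes past limma's threshold became 0 with arrays 3 and 4 turned (1518 at an unadjusted p under 0.05), 0 to 34 without single arrays (940 and 926 at an unadjusted p under 0.05 without arrays 2 and 4), 16 with scaled arrays, 122 with the spatial trend subtracted and 194 with a random block for the wild-type animal (consensus correlation -0.37). Leaving out an array also removes a degree of freedom. With the block, a negative correlation lowers the factor that turns a gene's spread into the standard error of its mean. The cause of the other changes was not tested. Cyp2c23 also passed with the spatial trend subtracted, and Cyp2c23 and Cyp2c40 with the block. Cyp2c66 changed sign without array 2, and with the arrays of wild-type animal 2 or arrays 3 and 4 alone. Each array already sets a mutant against a wild type. No paired analysis was possible because, beyond that pairing, the arrays form 1 group with no second group whose replicate numbers could be matched. Among the Cyp2c genes, exact repeats of values were most frequent for Cyp2c66 and Cyp2c55.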
